A study of Mus musculus with 15 samples.

Results

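The genes examined were the beta subunits of the sodium-potassium ATPase, *Atp1b1*, *Atp1b2* and *Atp1b3*, and the synucleins *Sncb* and *Sncg*. They are 5 of the 23132 genes kept from the RNA sequencing counts. *Atp1b1* and *Sncb* were chosen by their measured RNA levels, which were higher in *Phf6*-deleted than in control cortical neurons, so their difference between genotypes in neurons is described here and not tested. The remaining members are their paralogs and were taken by family.

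PHF6 is a chromatin-associated protein encoded on the X chromosome, and all samples came from male C57BL/6 mouse foetuses. The cortex was taken directly at E15.5 from 3 Phf6+/Y controls and 5 Phf6-/Y foetuses, which carry a germline deletion of exons 4 and 5, over litters 1 to 3. The neurons were isolated from E16.5 cortex and cultured overnight, from 3 Phf6+/Y;Nes-cre Tg/+ controls and 4 Phf6lox/Y;Nes-cre Tg/+ foetuses, over litters 4 to 7, of which litter 7 had no control. Both groups of neurons carry the *Nes-cre* transgene, in which nestin regulatory elements drive Cre in neural progenitor cells, and both groups of cortex lack it. Each sample was from 1 foetus, so p-values measure the spread between foetuses, and the cortex is a mixture that holds non-neuronal cells such as endothelium. Total counts were 22790294 to 31157700 reads per library in the cortex and 16858007 to 29842150 in the neurons.

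The labels were checked against *Phf6* and cell type markers. *Phf6* was at 181 ± 21.5 CPM (reads scaled to a common library size, SD, n = 3) in control and 50.3 ± 5.98 CPM (SD, n = 5) in Phf6-/Y cortex, and at 233 ± 16.1 CPM (SD, n = 3) in control and 66.8 ± 10.4 CPM (SD, n = 4) in *Phf6*-deleted neurons. These counts cover the whole gene and do not separate the deleted exons. Summed over 8 neuronal markers, the level was 4980 to 6140 CPM in the cortex and 8330 to 9490 CPM in the neurons, while 8 radial glia markers summed to 1700 to 2070 CPM in the cortex and 455 to 681 CPM in the neurons. Endothelial markers were at 124 to 270 CPM in the cortex and 3.7 to 7.32 CPM in the neurons, with *Cldn5* at 0 in every control neuron library. Cortex libraries differed widely in markers of meningeal fibroblasts, at 11.9 to 518 CPM, and of choroid plexus, at 1.69 to 462 CPM.

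The sodium-potassium ATPase exchanges sodium for potassium across the plasma membrane and maintains the gradients on which the resting potential of a neuron depends. It pairs a catalytic alpha subunit with a glycosylated beta subunit, which is needed for the enzyme to fold, reach the cell surface and bind potassium normally. *Atp1b1* encodes the widespread beta1 subunit, *Atp1b2* the beta2 subunit, first known as an adhesion molecule on glia, and *Atp1b3* the beta3 subunit. The synucleins are small soluble proteins that bind the membranes of synaptic vesicles. Beta-synuclein, encoded by *Sncb*, is found mainly at central presynaptic terminals, and gamma-synuclein, encoded by *Sncg*, is abundant in peripheral sensory and motor neurons.

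In the RefSeq annotation of GRCm38.p6, *Atp1b1* (Entrez gene 11931) lies at chr1:164437099-164458355, *Atp1b2* (11932) at chr11:69599728-69605978 and *Atp1b3* (11933) at chr9:96332655-96364431. *Sncb* (104069) lies at chr13:54758860-54766622 and *Sncg* (20618) at chr14:34370274-34374669. The sequence before the start site is shown for *Atp1b1* and *Sncb*, the 2 genes that define the pattern in neurons, with those of a paralog of each. Each run is the 250 bases before an annotated RefSeq start, on the minus strand, from chr1:164458356-164458605, chr9:96364432-96364681 (the more upstream of 2 starts), chr13:54766596-54766845 and chr14:34374670-34374919. Capitals mark matches on either strand to 5 motifs. The GC box was searched as GGGCGG, the CCAAT box as its name spells, the TATA box as TATAAA, the core of the cyclic AMP response element as TGACG, and the E-box as CACGTG. None of the marked matches overlapped.
*Atp1b1*: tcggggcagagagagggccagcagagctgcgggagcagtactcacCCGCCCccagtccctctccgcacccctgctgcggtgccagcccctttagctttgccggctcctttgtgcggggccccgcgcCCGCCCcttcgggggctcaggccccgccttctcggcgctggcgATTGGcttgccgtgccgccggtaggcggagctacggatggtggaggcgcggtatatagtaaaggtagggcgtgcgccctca
*Atp1b3*: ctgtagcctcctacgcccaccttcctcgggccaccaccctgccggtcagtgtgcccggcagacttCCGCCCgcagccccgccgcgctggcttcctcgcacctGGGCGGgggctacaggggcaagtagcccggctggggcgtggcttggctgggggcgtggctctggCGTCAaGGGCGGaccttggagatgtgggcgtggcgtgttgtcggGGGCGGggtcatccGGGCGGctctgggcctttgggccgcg
*Sncb*: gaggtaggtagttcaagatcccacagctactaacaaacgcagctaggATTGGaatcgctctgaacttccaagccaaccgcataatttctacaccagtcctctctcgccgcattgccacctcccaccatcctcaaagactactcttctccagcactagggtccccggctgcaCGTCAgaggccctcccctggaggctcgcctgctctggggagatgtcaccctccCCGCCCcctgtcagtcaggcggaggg
*Sncg*: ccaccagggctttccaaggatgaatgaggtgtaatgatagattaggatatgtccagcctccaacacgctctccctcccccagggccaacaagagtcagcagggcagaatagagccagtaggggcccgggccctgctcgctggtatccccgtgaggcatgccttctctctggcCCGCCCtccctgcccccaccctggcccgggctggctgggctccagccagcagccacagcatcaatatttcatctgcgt

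The window of *Atp1b1* was 70.4% G or C and held 2 GC boxes and 1 CCAAT box. The window of *Sncb* ends at a transcript start inside the gene, so 27 of its bases lie within the span of *Sncb* given above, and the GC box is among them. It was 58.8% G or C and held 1 GC box, 1 CCAAT box and 1 cyclic AMP response element core. The window of *Atp1b3* held 5 GC boxes and 1 such core, and that of *Sncg* held 1 GC box. The GC box was present in 32.7%, the CCAAT box in 33.8%, the cyclic AMP response element core in 17.8%, the TATA box in 12.4% and the E-box in 6.02% of the 32851 windows of this length in the annotation. The GC and CCAAT boxes, found in both the *Atp1b1* and the *Sncb* window, were the commonest of the 5 motifs, and a match does not show that a factor binds there.

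Levels of different genes were compared per kilobase of counted exon, as CPM per kilobase, scaled over all 15 libraries. In bulk samples, fewer cells of a type and less RNA per cell cannot be told apart. In control cortex, *Atp1b3* was at 45.1 ± 2.84 CPM per kilobase (SD, n = 3), *Sncb* at 30.8 ± 1.76, *Atp1b1* at 24.1 ± 2.61 and *Atp1b2* at 20.1 ± 1.54. *Sncg* was at 0.854 ± 0.549 in the same libraries, far below the others. In control neurons the order changed, with *Atp1b1* at 45.0 ± 3.42 CPM per kilobase (SD, n = 3), *Atp1b3* at 36.5 ± 2.43, *Atp1b2* at 23.2 ± 2.33 and *Sncb* at 14.2 ± 3.04. No read of *Sncg* was counted in these 3 cultures.

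Across the 4 groups, *Atp1b1* was highest in *Phf6*-deleted neurons, at 58.2 ± 5.86 CPM per kilobase (SD, n = 4), followed by control neurons, Phf6-/Y cortex at 31.2 ± 5.27 (SD, n = 5) and control cortex. In that order, only the Phf6-/Y and control cortex overlapped. *Sncb* ran in another order, from Phf6-/Y cortex at 33.1 ± 7.49 CPM per kilobase (SD, n = 5) and control cortex to *Phf6*-deleted neurons at 24.3 ± 4.38 (SD, n = 4) and control neurons. For *Sncb* too, the only neighbours in the order that overlapped were the groups of cortex. *Atp1b2* was between 20.1 and 23.2 CPM per kilobase in every group, and all neighbouring groups overlapped. *Atp1b3* was higher in both groups of cortex than in both groups of neurons, and overlapped between genotypes in each tissue.

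**Figure D1:**
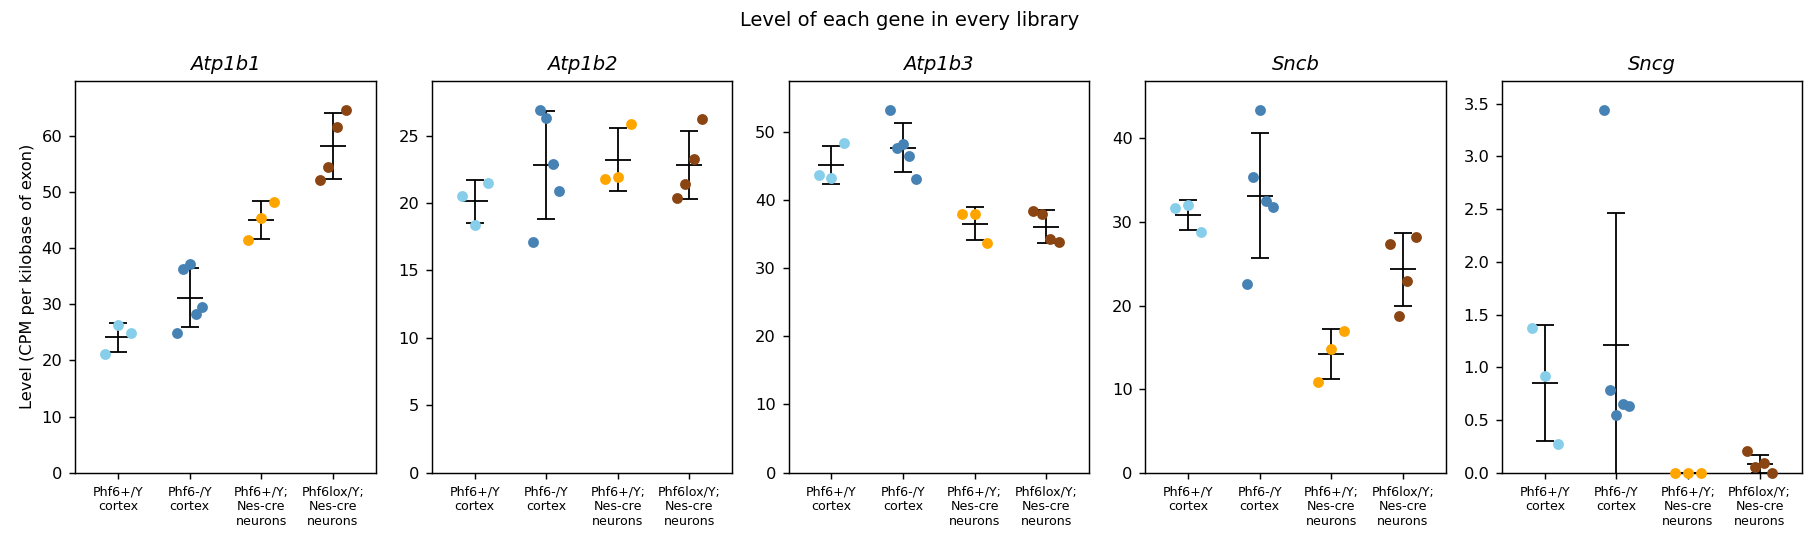
Level of each of the 5 genes in CPM per kilobase of exon (vertical axes from 0, a separate scale per gene) in the 4 groups, with 1 point per library and a black mark and bar for the mean and SD. *Atp1b1* rises from 24.1 in control cortex to 58.2 in *Phf6*-deleted neurons, *Sncb* is lowest in control neurons at 14.2, *Atp1b2* stays between 20.1 and 23.2, and *Sncg* is at 0 in all 3 control neuron libraries.

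The comparison of genotypes within cultured neurons asked which transcripts change when *Phf6* is deleted in a largely neuronal population. CPM values here were scaled within the tissue. *Atp1b1* was at 95.0, 104 and 111 CPM in the control cultures of litters 4, 5 and 6. It was at 124, 142 and 148 CPM in the *Phf6*-deleted cultures of those litters, and at 120 CPM in the culture of litter 7. Every *Phf6*-deleted culture lay above every control, and the difference within litters was 0.39, 0.45 and 0.42 on the log2 scale. With litter in the model, the fitted log2 fold change of *Atp1b1* was 0.42 (standard error 0.06), or 33.5% higher.

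*Sncb* was at 12.3, 16.7 and 19.1 CPM in the control cultures of litters 4, 5 and 6. The *Phf6*-deleted cultures of those litters were at 21.2, 26.0 and 31.9 CPM, and that of litter 7 was at 31.1 CPM. Again no *Phf6*-deleted culture fell into the range of the controls, and within each litter the difference was 0.78, 0.63 and 0.74 on the log2 scale. The culture of litter 4 was the lowest of its genotype and also had the lowest control. The fitted log2 fold change of *Sncb* was 0.72 (standard error 0.10), or 64.8% higher. Litter 7 has no control of its own and adds nothing to these fitted values.

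The beta subunit paralogs overlapped between genotypes in the same cultures. *Atp1b2* was at 60.9, 61.3 and 72.4 CPM in the controls and 59.6, 65.4 and 73.2 CPM in the *Phf6*-deleted cultures of litters 4, 5 and 6, with 57.1 CPM in litter 7. Its fitted log2 fold change was 0.02 (standard error 0.07). *Atp1b3* was at 65.9, 65.6 and 58.5 CPM in the controls and 65.4, 59.6 and 58.5 CPM in the *Phf6*-deleted cultures of the same litters, with 66.7 CPM in litter 7, and its log2 fold change was -0.05 (standard error 0.07). *Sncg* had 3, 1, 1 and 0 reads in the 4 *Phf6*-deleted cultures and 0 in the controls, so it did not pass the filter on low counts and was not tested.

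Of the 4 members that passed the filter in neurons, *Atp1b1* and *Sncb* had an FDR below 0.05, as the choice of members fixed, against 0.273% of all 13909 genes tested. The same 2 genes did not overlap between genotypes, against 7.28% of all genes tested. The other beta subunit gene, *Atp1b4*, which encodes a muscle protein of the inner nuclear membrane in placental mammals, had 5, 0 and 2 reads in the control cultures and 0 in every other library.

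**Figure D2:**
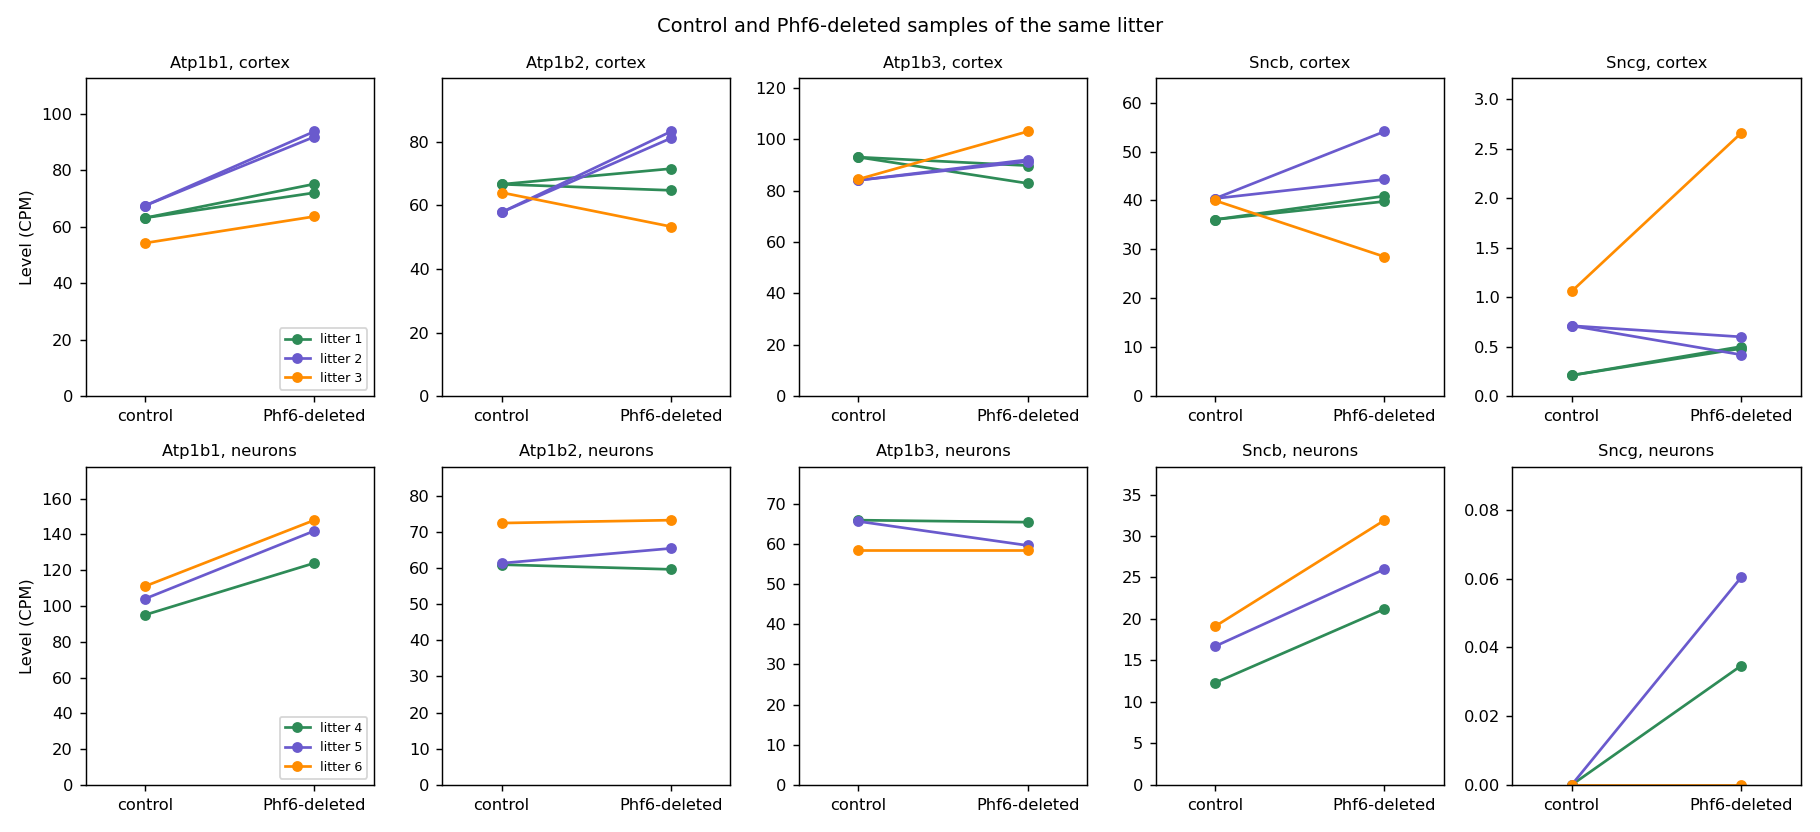
Level of each gene in CPM (vertical axes from 0, a separate scale per panel) in control and *Phf6*-deleted samples, with lines joining samples of the same litter, in E15.5 cortex (top, litters 1 to 3, where a control can be joined to 2 *Phf6*-deleted samples) and E16.5 neurons (bottom, litters 4 to 6). All lines of *Atp1b1* rise in both tissues, all 3 lines of *Sncb* rise in neurons, and in the cortex 1 of the 5 *Sncb* lines falls, that of litter 3.

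Markers of other cells were examined in the same neurons. The summed level of 4 Cajal-Retzius cell markers was 101 to 146 CPM in the controls and 172 to 354 CPM in the *Phf6*-deleted cultures, *Reln* being the 1 of the 4 with an FDR below 0.05. Of the choroid plexus list, *Ttr* alone passed the filter and had an FDR below 0.05. The list summed to 0.77 to 3.14 CPM in controls and 2.65 to 23.0 CPM in *Phf6*-deleted cultures, most of it *Ttr*, with means of 1.27 and 9.26 CPM. *Clic6* went the other way, with means of 0.414 and 0.201 CPM. *Kl* had 2 and 4 reads and *Folr1* 3 and 18 reads over the groups. Of the 8 neuronal markers, *Nefl*, a neurofilament subunit, was the 1 with an FDR below 0.05, and it was higher. The part of these cells in the levels of *Atp1b1* and *Sncb* was not tested. No radial glia, interneuron, intermediate progenitor, proliferation, astrocyte or oligodendrocyte marker tested had an FDR below 0.05 between genotypes in the neurons. The same held for the endothelial, microglial, meningeal, erythroid and peripheral sensory neuron markers tested. Only 0.273% of all genes had such an FDR, so the lack of calls does not show that these markers were unchanged. Not all were tested: 2 of 5 endothelial, 4 of 5 microglial, 3 of 4 astrocyte, 3 of 5 erythroid and 2 of 4 peripheral sensory neuron markers passed the filter.

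The rule that chose *Atp1b1* and *Sncb* named their levels in neurons and not in the cortex, though earlier results of these data were known. The genotypes were therefore tested in the cortex in edgeR by quasi-likelihood, with the litter in the model. The FDR was taken over all 14750 genes tested by the method of Benjamini-Hochberg. *Atp1b1* was at 63.1, 67.4 and 54.2 CPM in the controls of litters 1, 2 and 3. The Phf6-/Y cortices were at 72.0 and 75.1 CPM in litter 1, 91.8 and 93.7 CPM in litter 2 and 63.6 CPM in litter 3. Each of the 5 lay above the control of its litter, by 0.19 to 0.48 on the log2 scale, and 4 of the 5 exceeded all 3 controls. For *Atp1b1* the log2 fold change was 0.31 (standard error 0.07), or 24.1% higher, with an FDR of 0.107 in edgeR's test with Benjamini-Hochberg adjustment and an unadjusted p of 0.000842. It therefore did not pass the threshold of 0.05. In DESeq2, an alternative fit with the same terms, the FDR was 0.0174, and DESeq2 called more genes in all than edgeR. In limma-trend *Atp1b1* was not called. Over the 8 edgeR fits without 1 library, its FDR was 0.0759 to 0.442 with Benjamini-Hochberg adjustment.

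*Sncb* was at 36.1, 40.4 and 40.0 CPM in the control cortices of litters 1, 2 and 3. The Phf6-/Y cortices were at 40.9 and 39.8 CPM in litter 1, 44.3 and 54.1 CPM in litter 2 and 28.5 CPM in litter 3. The Phf6-/Y samples thus included both the highest and the lowest cortex, and 4 of the 5 lay above the control of their litter. The 1 below is the only Phf6-/Y cortex of litter 3, so an effect of litter and of this library cannot be told apart. Of all cortices, this library had the lowest sum of neuronal markers, 4980 CPM. Its sums of radial glia and proliferation markers, 2070 and 1250 CPM, were the highest. The part of these cells in its level of *Sncb* was not tested. The log2 fold change of *Sncb* was 0.03 (standard error 0.13, FDR = 0.967 in edgeR with Benjamini-Hochberg adjustment), and its range over fits without 1 library was -0.12 to 0.23. Whether the genotype difference of *Sncb* or of *Atp1b1* differed between cortex and neurons was not tested.

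*Atp1b2* was 62.8 ± 4.54 CPM (SD, n = 3) in control and 70.7 ± 12.3 CPM (SD, n = 5) in Phf6-/Y cortex, a difference of 0.12 on the log2 scale (standard error 0.12, FDR = 0.783 in edgeR with Benjamini-Hochberg adjustment). Like *Atp1b1* it was highest in both Phf6-/Y cortices of litter 2, at 83.2 and 81.1 CPM, and without the control of that litter its log2 fold change was -0.09. *Atp1b3* was 87.2 ± 5.07 CPM (SD, n = 3) in control and 91.7 ± 7.21 CPM (SD, n = 5) in Phf6-/Y cortex, a difference of 0.08 on the log2 scale (standard error 0.08, FDR = 0.767 in edgeR with Benjamini-Hochberg adjustment). *Sncg* had 5 to 32 reads in the controls and 11 to 60 reads in the Phf6-/Y cortices, and its difference of 0.59 on the log2 scale (standard error 0.48, FDR = 0.719 in edgeR with Benjamini-Hochberg adjustment) was 0.21 without either cortex of litter 3, 0.36 without the control of litter 1 and 1.28 without the control of litter 2. The genotypes overlapped for all 5 members in the cortex, where 5.27% of genes did not overlap.

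Of the 5 members tested in the cortex, 0 had an FDR below 0.05 in edgeR, against 0.386% of all genes tested, and 1, *Atp1b1*, had an unadjusted p below 0.05, against 5.69% of all genes in that direction. DESeq2 called 1 member and limma-trend 0. Beside these values, 2 of the 4 Cajal-Retzius markers, *Lhx5* and *Calb2*, and 1 of the 8 neuronal markers, *Nefl*, had an FDR below 0.05 and were higher in Phf6-/Y cortex. The Cajal-Retzius list summed to 270 to 302 CPM in the controls and 254 to 408 CPM in Phf6-/Y cortex, and the neuronal list to 5340 to 5810 and 4980 to 6140 CPM. Their part in the level of *Atp1b1* was not tested.

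**Figure D3:**
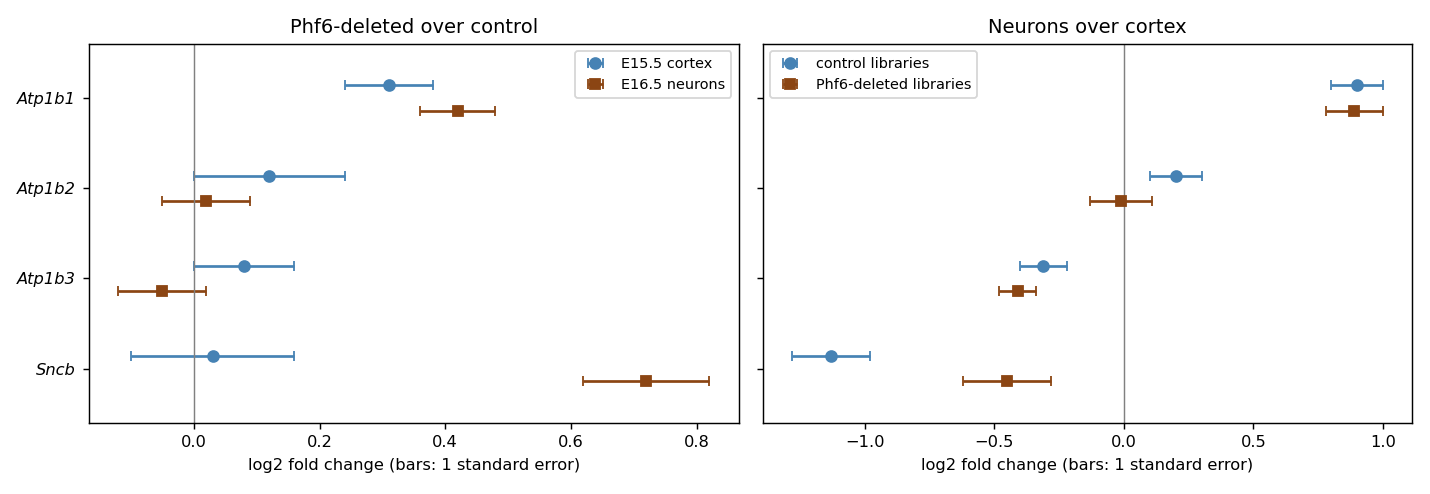
Fitted log2 fold change (horizontal axes, bars of 1 standard error) of *Atp1b1*, *Atp1b2*, *Atp1b3* and *Sncb* for *Phf6*-deleted over control samples in each tissue (left) and for neurons over cortex in each genotype (right). *Atp1b1* is at 0.31 and 0.42 on the left and at 0.90 and 0.89 on the right, while *Sncb* is at 0.03 and 0.72 on the left and at -1.13 and -0.45 on the right.

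Neurons were next compared with cortex within each genotype, to describe where the members are expressed. Stage, culture, the *Nes-cre* transgene and litter go with the tissue and cannot be told apart from it. These fits had no litter term, so the Phf6-/Y siblings of litter 1 and of litter 2 entered as independent samples. The neuron libraries are those from which *Atp1b1* and *Sncb* were chosen, and the control libraries also serve in the comparisons of genotypes, so these values are not independent of those above. Most genes differed in these comparisons, and a call of 1 member has to be read against that: 51.1% of 14320 genes in the controls and 59.2% of 14416 genes in the *Phf6*-deleted samples had an FDR below 0.05. Of the genes tested, 24.7% were higher and 26.4% lower in control neurons, and 28.0% were higher and 31.1% lower in *Phf6*-deleted neurons. Scaling by library totals in place of TMM shifted the median of all genes by -0.14 and -0.15 on the log2 scale and turned the direction of no member.

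*Atp1b1* was higher in control neurons than in control cortex by 0.90 on the log2 scale (standard error 0.10, FDR = 1.05e-05 in edgeR with Benjamini-Hochberg adjustment), and *Phf6*-deleted samples gave 0.89 (standard error 0.11). The choice of *Atp1b1* used its levels in these cultures, so its FDR is a description. *Atp1b2* differed by 0.20 in controls (standard error 0.10, FDR = 0.117 in edgeR with Benjamini-Hochberg adjustment) and by -0.01 in *Phf6*-deleted samples (standard error 0.12). *Atp1b3* was lower in neurons, with a difference of -0.31 in controls (standard error 0.09, FDR = 0.0124 in edgeR with Benjamini-Hochberg adjustment) and of -0.41 in *Phf6*-deleted samples (standard error 0.07). Leaving out the control cortex of litter 1 or the control culture of litter 6 took the FDR of *Atp1b3* to 0.0532 and 0.0662 in the controls, in the same edgeR test with Benjamini-Hochberg adjustment.

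*Sncb* was lower in control neurons than in control cortex, with a difference of -1.13 on the log2 scale (standard error 0.15, FDR = 3.77e-05 in edgeR with Benjamini-Hochberg adjustment). The level was 54.2% lower. The choice of *Sncb* used its lower level in control than in *Phf6*-deleted cultures, and these cultures enter both comparisons. Its FDRs between tissues are therefore a description. In *Phf6*-deleted samples the difference was -0.45 (standard error 0.17, FDR = 0.0373 in edgeR with Benjamini-Hochberg adjustment), and 1 of the 4 cultures lay below every Phf6-/Y cortex. Over the 9 fits without 1 library, the FDR of *Sncb* stayed below 0.05 in 3 fits and reached 0.112. In the controls all 3 cultures lay below every cortex.

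*Sncg* had 54 reads over 3 control cortices and 0 over 3 control cultures. Against a floor of 3 reads over the group, 0.0418 CPM, its pooled level in control cortex, 0.658 CPM, was at least 15.7-fold higher. This bound covers the cultures only, and the control cortices had 5 to 32 reads each. In the *Phf6*-deleted samples it had 112 reads over 5 cortices and 5 reads over 4 cultures, a ratio of 14.2 in pooled CPM. Of the 112 reads, 60 were in 1 library, the Phf6-/Y cortex of litter 3. In these samples *Sncg* passed the filter through the cortex libraries alone, so it could pass only by being higher in cortex and no test of it is given. Markers of peripheral sensory neurons, where *Sncg* is abundant, summed to 33.1 to 65.2 CPM in the cortex and 1.01 to 4.88 CPM in the neurons. Their part in the level of *Sncg* was not tested.

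In the controls, 3 of the 4 members that passed the filter had an FDR below 0.05, against 51.1% of genes. All 4 had ranges that did not overlap between tissues, against 60.5% of genes. *Sncg*, at 0 in every control culture, did not pass the filter and is not counted. In the *Phf6*-deleted samples 3 of the 4 members beside *Sncg* had an FDR below 0.05, against 59.2% of genes. Of these 4, *Atp1b1* and *Atp1b3* did not overlap, against 48.9% of genes. Among the marker lists whose genes all passed the filter on either tissue alone, 8 of 8 radial glia, 6 of 6 interneuron, 3 of 4 intermediate progenitor, 4 of 4 proliferation and 3 of 4 Cajal-Retzius markers had an FDR below 0.05 and were lower in control neurons than in control cortex, and 7 of 8 neuronal markers were higher. In *Phf6*-deleted samples 8 of 8 radial glia and 6 of 6 interneuron markers were lower and 8 of 8 neuronal markers higher. The other marker lists held genes that passed through 1 tissue alone, such as the endothelial *Cldn5*, and their calls are not counted. The part of these cells in the levels of the members was not tested.

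The make-up of the beta subunits was summarised as the share of each gene in the summed CPM per kilobase of *Atp1b1*, *Atp1b2* and *Atp1b3*, as a description. The sum itself was 89.4 ± 4.79 CPM per kilobase in control cortex (SD, n = 3), 102 ± 8.70 in Phf6-/Y cortex (SD, n = 5), 105 ± 3.35 in control neurons (SD, n = 3) and 117 ± 6.06 in *Phf6*-deleted neurons (SD, n = 4). *Atp1b1* made up 27.0% ± 2.59 of it in control cortex, 30.5% ± 2.97 in Phf6-/Y cortex, 42.9% ± 1.91 in control neurons and 49.6% ± 2.52 in *Phf6*-deleted neurons. The shares of *Atp1b1* in the neurons were 41.0% to 44.8% in the controls and 47.0% to 51.8% in the *Phf6*-deleted cultures, a difference that follows from the choice of *Atp1b1* by its level there. *Atp1b3* was the main beta subunit transcript in the cortex, at 50.5% ± 1.11 in controls, and *Atp1b1* was so in the neurons, where *Atp1b3* was at 34.9% ± 3.28 in controls and 31.0% ± 3.58 in *Phf6*-deleted cultures. The share of *Atp1b2* was 22.5%, 22.3%, 22.1% and 19.4% in the 4 groups.

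**Figure D4:**
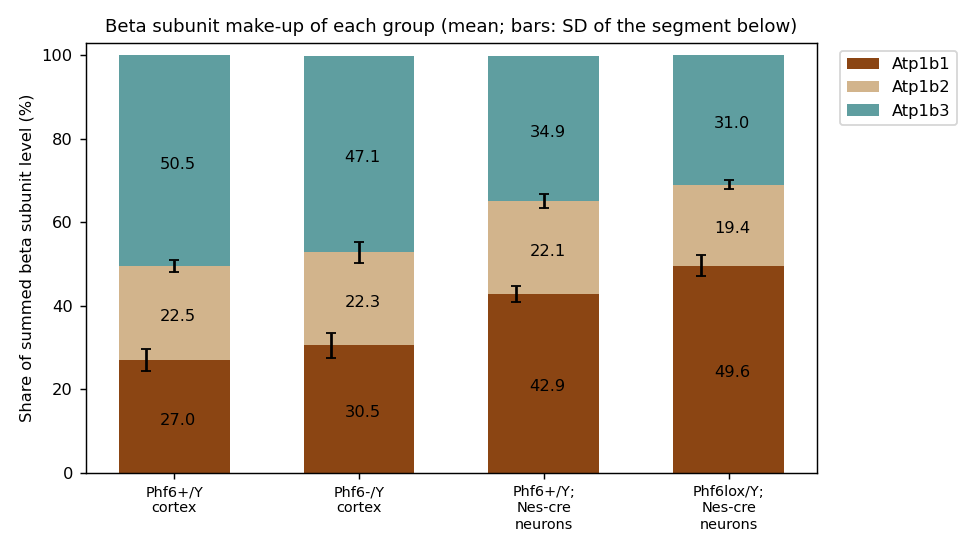
Share (%, vertical axis from 0) of *Atp1b1*, *Atp1b2* and *Atp1b3* in their summed CPM per kilobase in each of the 4 groups, as stacked means with the SD of the *Atp1b1* and *Atp1b2* segments at their upper edges. The *Atp1b1* segment is 27.0% in control cortex and 49.6% in *Phf6*-deleted neurons, while *Atp1b3* goes from 50.5% to 31.0%.

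The FXYD proteins are small membrane proteins that associate with the pump and tune its affinity for sodium and potassium. Of the 7 FXYD genes, 5 were tested in the cortex and 3 in the neurons for genotype. In either tissue, 0 had an FDR below 0.05 in edgeR, DESeq2 or limma-trend, nor an unadjusted p below 0.05 in edgeR. Over all genes in edgeR, 0.386% (cortex) and 0.273% (neurons) had such an FDR, and 10.5% and 10.3% such a p. So few genes could hold no call at these shares. The medians of the log2 fold change of the FXYD genes were 0.05 and 0.11, beside -0.002 and 0.001 over all genes. The most abundant, *Fxyd6*, a brain form, was at 226 ± 19.8 CPM (SD, n = 3) in control cortex and 197 ± 13.2 CPM (SD, n = 3) in control neurons. *Fxyd7*, a brain form that binds the pump, was at 5.64 to 7.41 CPM in control cortex and 0.220 to 0.554 CPM in control neurons, and it passed the filter through the cortex libraries alone. *Fxyd5*, an epithelial form also called dysadherin, had 233 reads over the control cortices and 40 over the control cultures, enough to pass in either tissue. In *Phf6*-deleted samples *Fxyd5* and *Fxyd7* both passed through the cortex alone, so no count of calls between tissues is given for this list.

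The NKAIN proteins bind the beta1 subunit. All 4 were tested, and 0 had an FDR below 0.05 between genotypes in either tissue by any of the 3 tools. None had an unadjusted p below 0.05 in edgeR, and the medians were -0.13 in the cortex and -0.07 in the neurons. Over all genes in edgeR, 0.386% (cortex) and 0.273% (neurons) had such an FDR, and 10.5% and 10.3% such a p. Between tissues all 4 were called in the controls and again in the *Phf6*-deleted samples, where 51.1% and 59.2% of all genes were. *Nkain1*, *Nkain2* and *Nkain3* were higher in control neurons, by 0.56 (standard error 0.08), 0.67 (0.13) and 0.93 (0.22) on the log2 scale, as was *Atp1b1*, and *Nkain4* was lower, at -0.91 (0.23). *Nkain1* was the most abundant, at 307 ± 20.5 CPM (SD, n = 3) in control cortex and 452 ± 5.91 CPM (SD, n = 3) in control neurons.

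Of 16 other P-type cation ATPases, 13 were tested in the cortex and 11 in the neurons. By any of the 3 tools, 0 had an FDR below 0.05 between genotypes, against 0.386% (cortex) and 0.273% (neurons) of all genes in edgeR. In edgeR 3 had an unadjusted p below 0.05 in each tissue, against 10.5% (cortex) and 10.3% (neurons) of all genes, and the medians were 0.07 and 0.10. In control neurons 5 of the 12 tested were higher than in control cortex, against 24.7% of all genes. The plasma membrane calcium pumps *Atp2b1* and *Atp2b2* were higher, by 1.30 (standard error 0.13) and 0.64 on the log2 scale, as was *Atp13a3*, a polyamine transporter, by 1.38. *Atp2a3*, a calcium pump of the endoplasmic reticulum, had 133 reads over the control cortices and 3 over the control cultures, and it passed the filter through the cortex alone.

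Of 23 presynaptic vesicle genes, the company of the synucleins, all were tested. In edgeR or limma-trend, 0 had an FDR below 0.05 between genotypes, against 0.386% (cortex) and 0.273% (neurons) of all genes in edgeR. The medians were 0.08 in the cortex and 0.09 in the neurons. DESeq2 called 2 in the cortex and 0 in the neurons, and in edgeR 6 and 7 had an unadjusted p below 0.05, against the 10.5% and 10.3% of all genes. In control neurons 16 of the 23 were higher, 2 were lower and 5 were not called, against 24.7% of all genes higher and 26.4% lower, with a median of 0.44 beside -0.028 over all genes. In *Phf6*-deleted samples 17 were higher and 2 lower, against 28.0% and 31.1%. *Syn3*, a synapsin of the vesicle surface, was higher by 1.58, *Snap25*, a SNARE protein of vesicle fusion, by 1.27 and *Cplx1*, a complexin that clamps fusion, by 0.96 on the log2 scale. *Sv2b*, a vesicle glycoprotein, was lower, at -1.73, the same direction as *Sncb*.

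The genes whose pattern was most like that of *Atp1b1* and *Sncb* were found by the Pearson correlation of log2 CPM over the 15 libraries, after the mean of each tissue had been subtracted, among 13733 genes that passed the filter in both tissues. The points share litter, genotype and library depth, so the correlations are a description. Nearest to *Atp1b1* were *Fam171b* (r = 0.95), *Vsnl1* (r = 0.92), which encodes a neuronal calcium sensor, *Reep1* (r = 0.91), *Brinp3* (r = 0.91) and *Snap91* (r = 0.91), which encodes a clathrin adaptor of presynaptic terminals. Nearest to *Sncb* were *Ndufb4c* (r = 0.94), *Krt1* (r = 0.91), *Actg1* (r = 0.91), *Pcdhga12* (r = 0.91) and *Nptxr* (r = 0.90), a neuronal pentraxin receptor. The counts of *Ndufb4c*, *Actg1* and *Pcdhga12* are uncertain, since related genes or pseudogenes share sequence with them. *Atp1b1* and *Sncb* correlated with each other at r = 0.73, at rank 247 of the genes most like *Atp1b1*. Both were chosen for higher levels in the *Phf6*-deleted cultures, and 7 of the 15 libraries are neurons, so this value is not independent of the choice. *Atp1b2* correlated with *Atp1b1* at r = 0.64 and with *Sncb* at r = 0.43, and *Atp1b3* at r = -0.17 and -0.37.

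The 3′ end of *Atp1b1* overlaps the gene *Nme7* by 202 bases, and the strand setting of the counting is not given in the sources used here. *Nme7* was at 29.1 to 33.6 CPM in control cortex and 24.5 to 25.1 CPM in control neurons, and its log2 fold change between genotypes was -0.06 in the cortex and 0.03 in the neurons.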

How the data were processed

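RNA was sequenced from 15 mouse samples with a stranded kit. The authors aligned the reads to mm10 with Rsubread, counted them per Entrez gene with featureCounts and deposited the counts without normalization, beside each gene's exon length in bases (bcl2fastq and featureCounts are in the submitters' processing notes). All 15 single-sample files equal their column of the joint table. Of 27179 entries, 1029 lacked a gene identifier (at most 0.605% of reads). Of 26150 identifiers, 875 were not matched to RefSeq (GRCm38.p6), and 835 pseudogenes, 35 ribosomal RNA genes and 1273 predicted genes were removed.

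Counts were filtered with filterByExpr, scaled by TMM and tested with edgeR 4.0.16 (R 4.3.3, robust quasi-likelihood F test, Benjamini-Hochberg adjustment, threshold 0.05), with litter as a term between genotypes and none between tissues. Standard errors are the log2 fold change over the square root of F. CPM use TMM library sizes. Litters follow the labels. Deviations from group means correlated at -0.16 to 0.46 within litters in the cortex and 0.10 to 0.30 in the neurons. Between litters they correlated at -0.45 to 0.17 in the cortex and -0.29 to 0.25 in the neurons, so the ranges overlapped. Alternatives were RLE factors, library totals, no filter, DESeq2 1.42.0, limma-trend (limma 3.58.1), no litter term and each library left out. The fits were tested on simulated data. The members and lists were chosen with earlier results of these data known. Named genes were the members, the 5 genes most like *Atp1b1* and *Sncb*, and up to 4 called genes per list by smallest p. A few genes are left out of the text. Of the members' promoters, the table holds none for *Atp1b2*.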

Additional observations from a re-analysis of the deposited data

Results flagged for a closer look

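*Sncg* was at 2.66 CPM (60 reads) in the Phf6-/Y cortex of litter 3, replicate 1 of its group, and at 0.419 to 0.600 CPM in the other 4 Phf6-/Y cortices. This sample was far from the others, with a gap to the nearest of 0.919 of the range of the group, above the Dixon limit of 0.710 for 5 samples. The limit is passed by chance in about 1 of 20 groups, and 10 groups were examined. The control of the same litter was also the highest of its group, at 1.06 CPM. The summed level of peripheral sensory neuron markers was 65.2 CPM in this Phf6-/Y library and 34.9 to 48.2 CPM in the other 4, and their part in the level of *Sncg* was not tested. *Sncb* was lowest of all cortices in the same library, at 28.5 CPM.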

How the results depend on the processing

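Without the litter term (no replicate block), which ignores that litters pair the samples, 1 gene was called in each tissue between genotypes instead of 57 in the cortex and 38 in the neurons, 0 members were called in the neurons instead of 2, and *Atp1b2* in the neurons was at -0.02. With no filter 114 genes were called in the cortex and 297 in the neurons, and DESeq2 called 199 and 62, including 1 member in the cortex, *Atp1b1*. Library totals gave 73 calls in the neurons and lowered the share of called genes that were higher in neurons than in cortex from 48.4% to 33.0% in controls and from 47.4% to 30.6% in *Phf6*-deleted samples. *Atp1b2* between tissues in *Phf6*-deleted samples was at 0.01 under RLE factors, DESeq2 and limma-trend, against -0.01.

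With each library left out in turn, 7 to 81 genes were called in the cortex and 16 to 494 in the neurons, where the lowest count came without the control of litter 5 and the highest without the control of litter 6. Of the members, 1 to 2 were called in the neurons, *Atp1b1* dropping out without either culture of litter 5. Between tissues in *Phf6*-deleted samples 2 to 4 were called, *Sncg* counted, with 2 without the Phf6-/Y cortex replicate 2 or 4. With every library kept, 0.273% and 59.2% of all genes were called in these comparisons. *Atp1b1* and *Sncb* were chosen from the neurons, so the counts there, with or without the litter term, are a description. *Sncg* could pass the filter between tissues only by being higher in cortex, so its calls in the fits without 1 library are not a test. Log2 fold changes over these fits were -0.09 to 0.27 (*Atp1b2*), -0.12 to 0.23 (*Sncb*) and 0.21 to 1.28 (*Sncg*) in the cortex, -0.01 to 0.05 (*Atp1b2*) in the neurons and -0.10 to 0.06 (*Atp1b2*) between tissues in *Phf6*-deleted samples. *Atp1b1* kept its direction in every fit of every comparison. The cause of these changes was not tested beyond the libraries and genes each fit leaves out. Depth limits *Sncg*, which had at most 3 reads in any culture.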
